A study of Danio rerio with 6 samples.

Results

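The genes described here encode molecular chaperones and folding enzymes of the cytosol, the endoplasmic reticulum (ER) and mitochondria in regenerating zebrafish liver. They were chosen by name alone. A gene was a member if its deposited name began with hsp followed by a, b, c, d, e, h or 9, with dnaj, with pdia, or with cct and a digit, or if it was *hyou1*, *canx*, *calr*, *calr3a*, *calr3b* or *p4hb*. This gave 98 of the 25281 genes listed. By textbook location, 45 were placed in the cytosol or nucleus, 29 in the ER and 12 in mitochondria, and 12 belonged to vesicles or cilia or had a location that was not sure.

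The livers came from *Tg*(*fabp10a:pt-β-catenin*) larvae in both groups. The transgene places a Xenopus β-catenin that resists degradation, and so acts as an oncogene, behind the *fabp10a* promoter, which works in hepatocytes. The hepatocytes are damaged and liver progenitor cells (LPCs) arise, so no group here was an uninjured liver. The larvae received DMSO, the vehicle, or 1 μM GW7647, an agonist of the nuclear receptor PPARα, for 2 days from 13 to 15 days post-fertilization (dpf). Each library held poly(A) RNA from many dissected livers pooled, with 3 libraries per group, and the study used GW7647 to ask how PPARα activation affects the differentiation of LPCs into hepatocytes.

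Chaperones of the Hsp70 family hold unfolded stretches of a protein and let go of them in a cycle driven by ATP. J-domain proteins (the dnaj genes) bring clients to Hsp70 and start ATP hydrolysis, and nucleotide exchange factors such as the Hsp110 proteins reset it. Hsp90 acts later on signalling proteins, while the chaperonins TRiC in the cytosol and Hsp60 with Hsp10 in mitochondria enclose their clients. Hepatocytes secrete most plasma proteins, and in their ER the Hsp70 BiP, the lectins calnexin and calreticulin and the protein disulfide isomerases fold these proteins. Heat shock factor 1 raises the cytosolic set under heat or misfolding, and the unfolded protein response raises the ER set.

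The libraries held 19961881 to 25224356 reads on exons. All levels below are CPM (counts scaled to a common library total) after TMM normalization, which scales each library so that most genes keep their level, and TPM is used where genes are compared with each other because it corrects for length. The TMM factors were 1.048 to 1.104 in the DMSO libraries and 0.903 to 0.940 in the GW7647 libraries, so they separated the groups. Markers are said to be called here at an adjusted p of at most 0.05 in edgeR, whatever the fold change. Of all 15705 genes tested, 5.50% were called higher and 3.56% lower. A log2 fold change above 0 was found for 48.2% of them, and for 19.6% without a scaling factor. Of the hepatocyte markers, 13 of 14 tested were higher with GW7647 (12 without a scaling factor), with a median log2 fold change of 0.68. Of these, 9 were called. *fabp10a*, whose promoter drives the transgene, was the exception, with a log2 fold change of -0.36 (SE 0.10, adjusted p = 0.0496). All 10 biliary epithelial cell (BEC) or progenitor markers were lower, with a median of -0.24, and 3 were called. DMSO replicate 2 stood apart in the markers of neighbouring tissue. The 17 exocrine pancreas markers found summed to 121 CPM there and to 11.5 to 27.5 CPM in the other 5 libraries, and only *ptf1a* among them was at 0 reads in all libraries. The 21 skeletal muscle markers summed to 51.1 CPM there and to 9.08 to 25.6 CPM elsewhere, with none at 0 throughout. The 6 intestine markers found summed to 340 to 438 CPM with DMSO and 482 to 500 CPM with GW7647. Of the 5 tested, 4 were higher (median 0.58) and 1 was called, *mttp*, which hepatocytes also express. The 10 macrophage or neutrophil markers summed to 115 to 139 CPM with DMSO and 108 to 114 CPM with GW7647, with 8 lower and 1 called, *mpx*. None of the intestine, macrophage or neutrophil markers was at 0 throughout, and their part in the results below was not tested.

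As a group, the chaperone genes changed little. Of the 98 genes, 85 had enough reads to be tested, and 82 of these (96.5%) differed by less than 1.5-fold between GW7647 and DMSO, against 85.8% of all 15705 genes tested. The median SE was 0.117 for the chaperone genes and 0.153 for all genes, a difference that these shares do not take into account. A differentially expressed gene (DEG) here had an adjusted p of at most 0.05 in the quasi-likelihood test of edgeR and a fold change of at least 1.5. No chaperone gene was a DEG that rose, against 3.39% of all genes tested. With an unadjusted p under 0.05 and the same fold change the count was also 0, against 4.53% of all genes, and DESeq2 gave 0 as well, against 3.87%. Both DEGs that fell were cytosolic, the small heat shock protein gene *hspb1* and the J-domain gene *dnajb1b*, and this made 2 of 85 against 2.62% of all genes. In whole livers, fewer cells of a type and less RNA per cell cannot be told apart.

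By the adjusted p alone, 2 chaperone genes rose, the mitochondrial *dnaja3a* and the ER-located *dnajc1*, against 5.50% of all genes. The same 2 genes as above fell, against 3.56% of all genes. With the replicate number as a block, 6 rose, against 9.95% of all genes, and 2 fell, against 7.72%. The 4 genes added were *hspa9*, *hspd1*, *hspa13* and *dnajc3a*. In each of these readings the share of chaperone genes called was below that of all genes. At an unadjusted p under 0.05 with any fold change, 15 of the 85 were higher, against 12.7% of all genes. In that reading 3 were lower, against 12.3%.

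Small shifts were more often upward. The fitted log2 fold change was above 0 for 58 of the 85 genes, against 48.2% of all genes, and its median was 0.12 against -0.01. In 28 of the 85 genes every GW7647 library was above every DMSO library, against 15.7% of all genes, and in 11 every GW7647 library was below, against 15.3%. These shares too do not take into account the lower median SE of the chaperone genes given above. The median was 0.09 for the cytosol (36 tested), 0.16 for the ER (27 tested), 0.22 for mitochondria (12 tested) and -0.08 for the 10 others tested. These directions rest on the scaling. With library totals and no scaling factor, the median of all genes moved to -0.23 and that of the chaperone genes to -0.10, and 22 of the 85 genes were above 0, against 19.6% of all genes. No chaperone gene then had every GW7647 library above every DMSO library, and 21 had every one below, against 37.2% of all genes. Relative to the median of all genes, the chaperone median was 0.13 higher under either scaling. A scaling factor moves all genes of a library alike and nearly cancels in this difference, so the match is no separate evidence. Rises and falls below are therefore relative to most other genes.

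**Figure D1:**
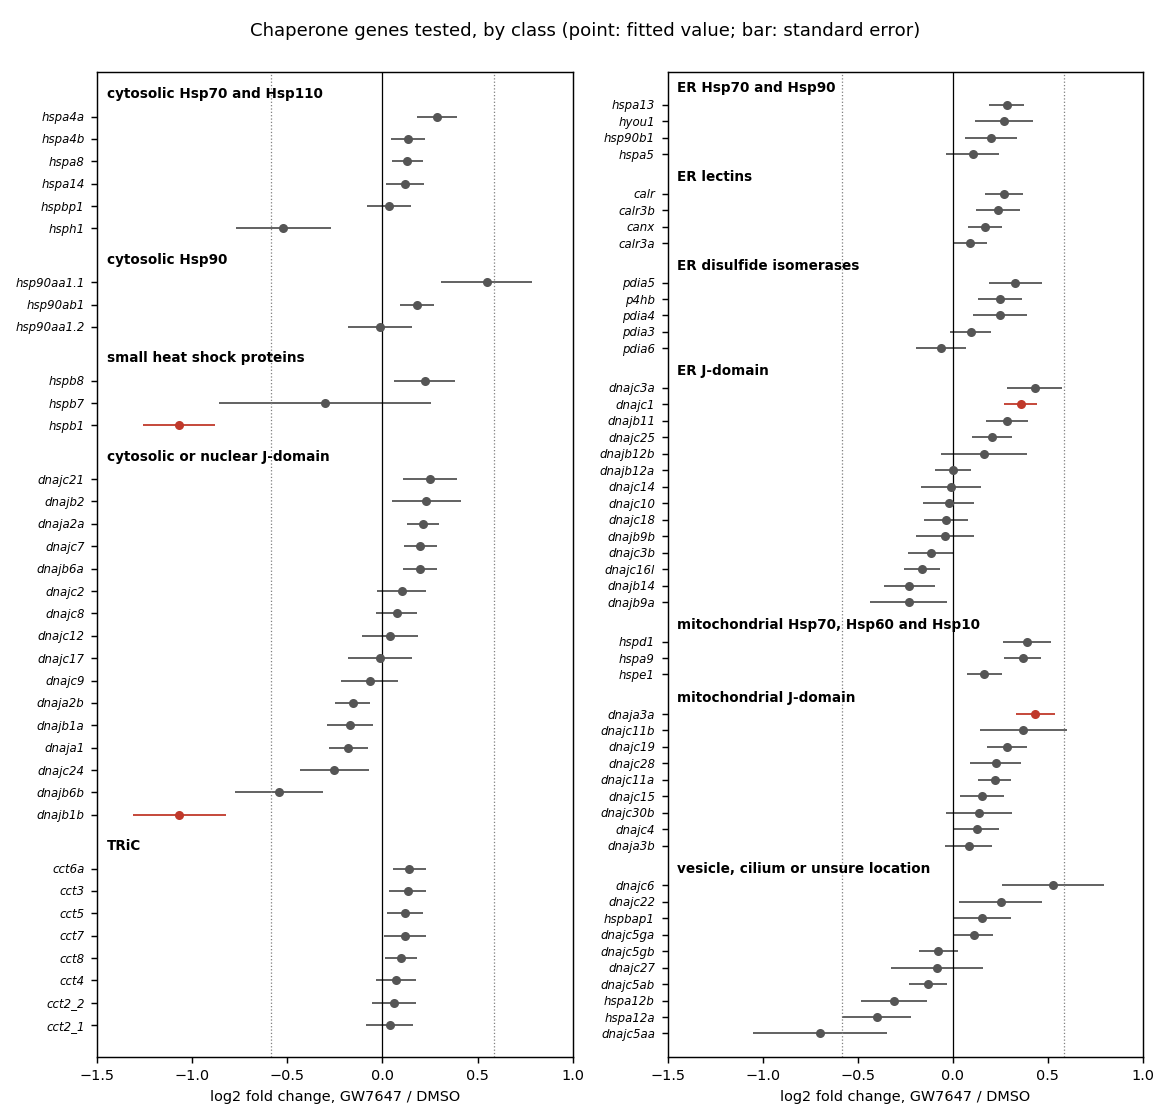
Log2 fold change of GW7647 over DMSO for the 85 chaperone genes tested, by class, with TMM scaling. Points are fitted values, bars are standard errors, dotted lines mark 1.5-fold, and red marks an adjusted p of at most 0.05, which *hspb1* and *dnajb1b* reached on the lower side and *dnaja3a* and *dnajc1* on the higher side.

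**Figure D2:**
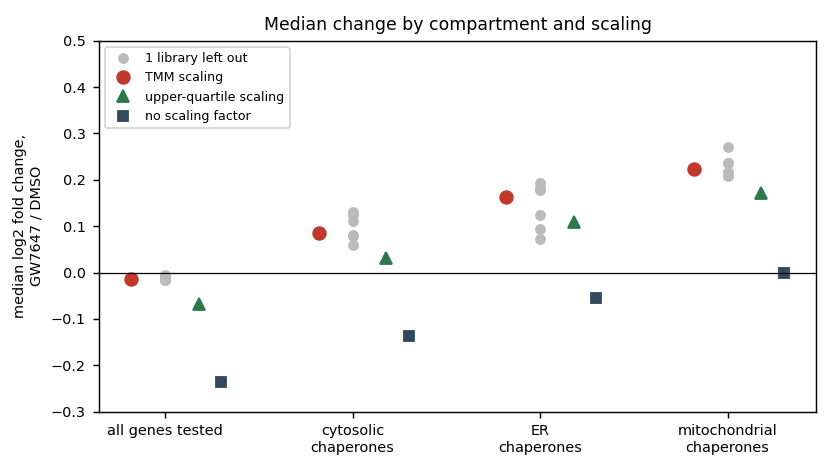
Median log2 fold change of GW7647 over DMSO for all genes tested and for the chaperone genes of each compartment, with TMM scaling (red), upper-quartile scaling (green), no scaling factor (dark squares) and each library left out in turn (grey). Medians shifted down together without a scaling factor, to -0.23 for all genes and to 0.00 for mitochondria. A scaling factor moves all genes of a library alike. The order cytosol, ER and mitochondria from low to high therefore had to stay nearly the same under these scalings. Without DMSO replicate 2 the cytosol, at 0.12, was above the ER, at 0.07.

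Together the 98 genes took 1.35% ± 0.11 (SD, n = 3) of all TPM with DMSO and 1.32% ± 0.01 with GW7647. TPM carries no TMM factor. On the TMM-normalized CPM scale the 98 genes summed to 26835.1 to 27745.5 with DMSO and 30125.1 to 31271.9 with GW7647, without overlap. The sum over all genes did not overlap on that scale either, at 906770.5 to 955288.1 with DMSO and 1064316.4 to 1107928.4 with GW7647. A pair of cytosolic genes supplied much of the chaperone TPM. *hsp90ab1*, the constitutive Hsp90, had a mean of 3039 with DMSO and 3015 with GW7647 on the TPM scale and *hspa8*, the constitutive Hsp70, 2070.5 with DMSO and 1992 with GW7647, which ranked them 76 and 102 among all genes listed. They made up 37.8% ± 1.1 of the chaperone TPM with DMSO and 37.8% ± 1.0 with GW7647. The next were *hspa5*, the BiP gene of the ER, at 645 with DMSO and 603 with GW7647, and the TRiC subunit *cct4* at 597 with DMSO and 552 with GW7647. By compartment, the cytosol held 66.8% ± 2.4 and 65.7% ± 1.7 of the chaperone TPM with DMSO and GW7647, the ER 24.2% ± 2.4 and 24.4% ± 1.3, and mitochondria 8.53% ± 0.54 and 9.44% ± 0.41. The 3 mitochondrial shares were 8.02%, 8.49% and 9.09% with DMSO and 9.28%, 9.13% and 9.90% with GW7647, so the groups did not overlap for that share. The summed mitochondrial TPM did overlap, at 1129.5, 1046.3 and 1291.6 with DMSO and 1216.2, 1215.5 and 1316.1 with GW7647. Summed mitochondrial CPM did not, at 1572.1, 1575.5 and 1803.0 with DMSO and 2049.8, 1998.5 and 2158.7 with GW7647. The share of the 12 other genes did not overlap either, in the lower direction, at 0.453%, 0.436% and 0.448% with DMSO and 0.388%, 0.402% and 0.405% with GW7647.

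In the cytosol, the abundant constitutive chaperones differed by small steps. *hspa8* stood at 7520.1, 8048 and 7404 CPM in DMSO replicates 1, 2 and 3 and 8613, 8282 and 8263 CPM in the GW7647 ones. All GW7647 libraries were above all DMSO ones, yet the log2 fold change was only 0.13 (SE 0.08, adjusted p = 0.37). *hsp90ab1* stood at 9281, 8369 and 8617 CPM in DMSO replicates 1, 2 and 3 and 10385, 9971 and 9414 CPM in the GW7647 ones, again with no overlap, and its log2 fold change was 0.18 (SE 0.09, adjusted p = 0.24). Without a scaling factor both signs turned, to -0.09 and -0.04.

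The other Hsp90 genes were expressed at far lower levels. *hsp90aa1.1*, which in zebrafish serves myosin folding in skeletal muscle, had 3.54, 2.74 and 4.11 CPM with DMSO and 6.68, 4.07 and 4.50 CPM with GW7647. Its fitted log2 fold change of 0.55 (SE 0.24, adjusted p = 0.19) was the highest among the 85 genes but did not pass, and the groups overlapped. *hsp90aa1.2*, its neighbour 690 bases away on chromosome 20, had 35.0, 27.9 and 33.1 CPM with DMSO and 40.2, 29.7 and 25.3 CPM with GW7647, with the 2 groups interleaved and a log2 fold change of -0.01 (adjusted p = 0.97).

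Among the nucleotide exchange factors of Hsp70, *hspa4a* and *hspa4b* encode Hsp110 proteins. *hspa4a* had 144, 140.2 and 169 CPM with DMSO and 194, 185 and 174 CPM with GW7647, with no overlap and a log2 fold change of 0.29 (SE 0.10, adjusted p = 0.13). *hspa4b* had 219, 198 and 217 CPM with DMSO and 238, 234 and 225 CPM with GW7647 and a log2 fold change of 0.14 (adjusted p = 0.39). *hsph1*, a heat-inducible Hsp110, was close to the low end of what was tested, at 1.61, 1.58 and 1.57 CPM with DMSO and 1.30, 0.872 and 1.15 CPM with GW7647. Every GW7647 library was below every DMSO library for *hsph1*, with a log2 fold change of -0.52 (SE 0.25, adjusted p = 0.23).

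The 16 cytosolic or nuclear J-domain genes tested split evenly, with 8 above 0 and 8 below and a median of 0.01. *dnajb1b* fell the furthest. It is one of a pair of zebrafish copies of DNAJB1, the heat-inducible Hsp40 that starts the Hsp70 cycle (listed at chromosome 1, 55745878 to 55750208, minus strand, 3 exons, build not given in the sources used here). Its levels were 15.8, 10.9 and 12.0 CPM in DMSO replicates 1, 2 and 3 and 8.70, 5.28 and 4.58 CPM in the GW7647 ones. Every GW7647 library was below every DMSO library, and the log2 fold change was -1.07 (SE 0.24, adjusted p = 0.029), or 2.10-fold lower. The call was not robust to single libraries: the adjusted p ran from 0.0075 to 0.11 over the 6 leave-outs and passed in 1 of them, without GW7647 replicate 1, although the log2 fold change stayed between -1.39 and -0.89. With the replicate number as a block the adjusted p was 9.2e-04. Only 66.6% of its exon reads mapped to 1 place, and on such reads alone the log2 fold change was -1.03 (adjusted p = 0.038).

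Its copy *dnajb1a* differed less. *dnajb1a* had 18.7, 19.9 and 20.2 CPM with DMSO and 20.4, 16.6 and 15.3 CPM with GW7647, with overlapping groups and a log2 fold change of -0.17 (SE 0.12, adjusted p = 0.43). The log2 ratio of *dnajb1b* to *dnajb1a* was -0.24, -0.86 and -0.75 with DMSO and -1.23, -1.65 and -1.74 with GW7647, so each GW7647 library was lower. That difference of -0.92 was not tested.

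The most abundant cytosolic J-domain gene was *dnaja2a*, a co-chaperone of Hsp70, at a mean TPM of 220.1 with DMSO and 224 with GW7647. It had 277, 279 and 275 CPM with DMSO and 334, 315 and 314 CPM with GW7647, with no overlap and a log2 fold change of 0.21 (SE 0.08, adjusted p = 0.15). Its copy *dnaja2b* had 40.0, 45.4 and 41.7 CPM with DMSO and 37.5, 36.8 and 39.8 CPM with GW7647. There the GW7647 libraries were all lower, with a log2 fold change of -0.16 (SE 0.09, adjusted p = 0.32). *dnaja1*, another Hsp70 co-chaperone, had 23.0, 22.4 and 22.4 CPM with DMSO and 21.9, 20.2 and 17.8 CPM with GW7647 and a log2 fold change of -0.18 (adjusted p = 0.32), with 60.5% of its reads mapped to 1 place. Without a scaling factor *dnaja2b*, at -0.38 (adjusted p = 0.026), and *dnaja1*, at -0.40 (adjusted p = 0.032), passed on the lower side. The median of all genes was then -0.23. *dnajc21*, known for a role in ribosome maturation, had the highest log2 fold change of this class, 0.25 (SE 0.14, adjusted p = 0.32), and overlapping groups.

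The chaperonin TRiC, which folds actin and tubulin, was uniform. Its 7 subunits with a cct name are listed in 8 entries. The entries *cct2_1* and *cct2_2* share a name and lie on opposite strands of chromosome 4, and whether they are pieces of 1 gene was not tested. All 8 had log2 fold changes between 0.04 and 0.14, and none passed (lowest adjusted p = 0.35). *cct6a* was the highest at 0.14, from 626, 622 and 644 CPM with DMSO and 730.3, 698 and 659 CPM with GW7647. *cct4*, the most abundant per length, had 578, 682 and 588 CPM with DMSO and 674, 674 and 592 CPM with GW7647 and a log2 fold change of 0.07. Values for the other entries were 0.13 for *cct3*, 0.12 for *cct5*, 0.12 for *cct7*, 0.10 for *cct8*, 0.04 for *cct2_1* and 0.06 for *cct2_2*. Without a scaling factor all 8 were below 0, at -0.08 to -0.18. *tcp1*, the subunit outside the name rule, had a log2 fold change of 0.22 (SE 0.09, adjusted p = 0.18).

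Of the 9 small heat shock protein genes, which hold unfolded proteins without ATP, only 3 had enough reads to be tested. *hspb1*, the Hsp27 gene, whose product also binds actin, fell (listed at chromosome 5, 3568016 to 3584815, minus strand, 7 exons). Its levels were 8.75, 12.0 and 7.997 CPM in DMSO replicates 1, 2 and 3 and 3.91, 4.94 and 4.79 CPM in the GW7647 ones. The groups were far apart, with the lowest DMSO library at 7.997 CPM and the highest GW7647 library at 4.94 CPM, and the log2 fold change was -1.07 (SE 0.19, adjusted p = 0.012), or 2.10-fold lower. It was the only chaperone gene with an adjusted p of at most 0.05 in all 6 leave-outs, where the adjusted p was 0.017 to 0.038 and the log2 fold change -1.18 to -0.87. The DMSO library with the most *hspb1*, replicate 2, was also the one high in markers of other tissue. The 10 smooth or cardiac muscle markers, of which 4 were tested and none was at 0 throughout, summed to 36.6, 85.0 and 51.4 CPM with DMSO and to 26.7, 34.8 and 31.1 CPM with GW7647. Among them *acta2* fell, with a log2 fold change of -1.54 (SE 0.36, adjusted p = 0.032). Without DMSO replicate 2 the log2 fold change of *hspb1* was -0.87 (adjusted p = 0.035). The part of muscle in the remaining difference was not tested.

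*hspb8*, the most abundant small heat shock protein gene, which works with Bag3 in clearing misfolded proteins, was not lower on average. Its levels were 154, 129.9 and 148 CPM in DMSO replicates 1, 2 and 3 and 207, 129.9 and 168 CPM in the GW7647 ones. The groups overlapped, since GW7647 replicate 2 was level with the lowest DMSO library, and the log2 fold change was 0.22 (SE 0.16, adjusted p = 0.43). *hspb7*, a small heat shock protein of heart and muscle in mammals, was at 1.24 CPM in DMSO replicate 2 and at 0.19 to 0.85 CPM elsewhere, with a log2 fold change of -0.30 (SE 0.56, adjusted p = 0.78).

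**Figure D3:**
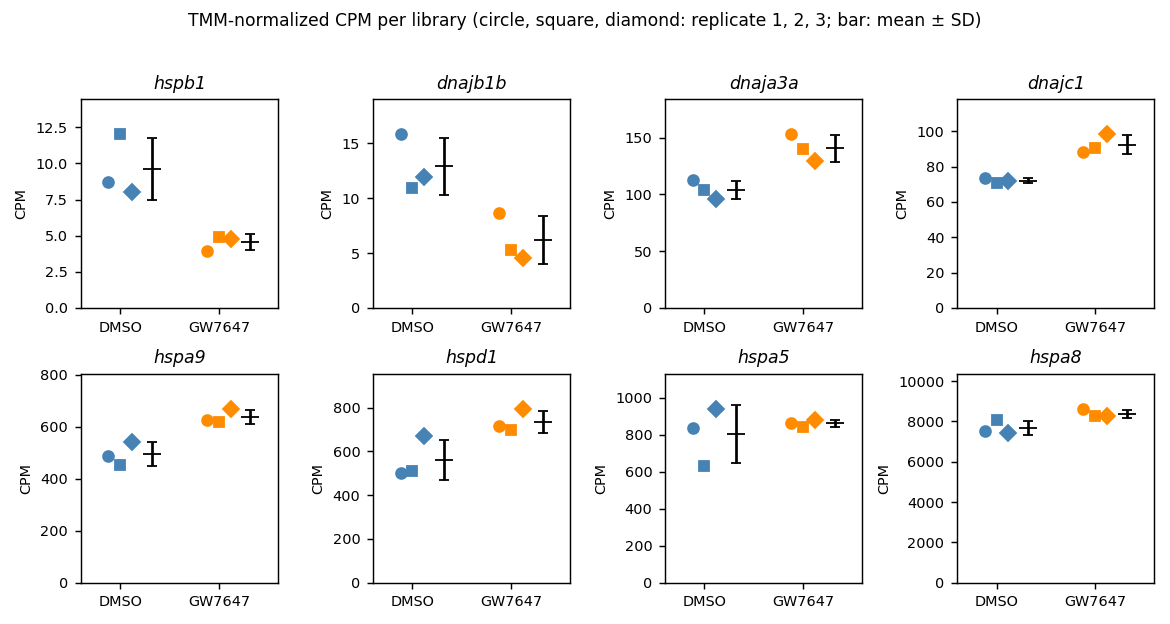
TMM-normalized CPM in each library for 8 chaperone genes, with circles, squares and diamonds for replicates 1, 2 and 3 and bars for the mean ± SD of 3 libraries. The groups did not overlap for *hspb1*, *dnajb1b*, *dnaja3a*, *dnajc1*, *hspa9*, *hspd1* or *hspa8*, whereas for *hspa5* the DMSO libraries ran from 630.5 to 939.9 CPM and enclosed the GW7647 libraries.

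In the ER, none of the 27 chaperone genes tested was a DEG, against 3.39% of all genes higher and 2.62% lower. DESeq2 gave 0 as well, against 3.87% of all genes higher. With 27 genes, a count of 0 is near these shares. At an unadjusted p under 0.05, 6 of 27 were higher, against 12.7% of all genes, and none was lower, against 12.3%. The central genes, BiP, Grp94, calnexin, the calreticulins and the disulfide isomerases, were 0.06 lower to 0.33 higher on the log2 scale. *hspa5* (BiP), the main ER Hsp70, had 840.0, 630.5 and 939.9 CPM in DMSO replicates 1, 2 and 3 and 866, 844 and 879.5 CPM in the GW7647 ones. The GW7647 libraries lay within the DMSO range, and the log2 fold change was 0.10 (SE 0.14, adjusted p = 0.70). *hsp90b1* (Grp94), the ER Hsp90, had 896, 612 and 817 CPM in DMSO replicates 1, 2 and 3 and 889, 873 and 914 CPM in the GW7647 ones. DMSO replicate 1 reached the level of the GW7647 libraries, and the log2 fold change was 0.20 (SE 0.14, adjusted p = 0.40). For *hyou1*, the exchange factor of BiP, the values were 225, 153 and 220.3 CPM with DMSO and 229.6, 226 and 267 CPM with GW7647, with a log2 fold change of 0.27 (SE 0.15, adjusted p = 0.31).

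These 3 genes shared a low value in DMSO replicate 2, which set much of their change. That library was the lowest of all 6 for 15 of the 27 ER genes tested (55.6%), against 19.1% of all genes. Without it, an alternative brought forward after these values were seen, the log2 fold change was -0.04 for *hspa5*, 0.06 for *hsp90b1* and 0.12 for *hyou1*, and the median of the 27 ER genes was 0.07 in place of 0.16. The summed ER chaperone level was 4811, 3866 and 4706 CPM with DMSO and 4926, 4887 and 5303 CPM with GW7647. Summed TPM, which has no TMM factor, was 3652, 2655 and 3578 with DMSO and 3087, 3166 and 3452 with GW7647, with overlap. The part of the pancreas and muscle RNA in DMSO replicate 2 was not tested. *pdia2*, the disulfide isomerase gene of the pancreas in mammals, had 17 reads in DMSO replicate 2 and 0 or 1 in each other library.

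*hspa13*, an ER Hsp70 of low abundance, had 30.9, 28.1 and 29.0 CPM with DMSO and 37.5, 33.5 and 36.2 CPM with GW7647, with no overlap, and every DMSO library lay within 3 CPM of the others. Its log2 fold change was 0.28 (SE 0.09, adjusted p = 0.091), and the adjusted p was 0.038 with the replicate number as a block and 0.67 without a scaling factor, at a log2 fold change of 0.06.

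The ER lectins bind glycoproteins through their sugar chains and hold them until they are folded. All 4 of their genes were higher on average, by 0.09 to 0.27 on the log2 scale (2 of 4 without a scaling factor), and none passed. *canx* (calnexin) had 504, 464 and 529.7 CPM with DMSO and 554, 547 and 584 CPM with GW7647, with no overlap and a log2 fold change of 0.17 (SE 0.09, adjusted p = 0.29). Of the calreticulin genes, *calr* had 132, 115 and 125 CPM with DMSO and 139.8, 146 and 162 CPM with GW7647, with no overlap and a log2 fold change of 0.27 (SE 0.10, adjusted p = 0.14). The more abundant copies *calr3a* and *calr3b* had log2 fold changes of 0.09 (adjusted p = 0.57) and 0.24 (adjusted p = 0.24). *calr3a* stood at 319.8, 304 and 328 CPM with DMSO and 326, 333 and 357 CPM with GW7647, and *calr3b* at 300.4, 238 and 286 CPM with DMSO and 312, 308 and 353 CPM with GW7647. For *calr3a* 1 DMSO library exceeded 1 GW7647 library, and for *calr3b* there was no overlap.

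Disulfide isomerases form and rearrange the disulfide bonds of secreted proteins. *p4hb*, the classical enzyme, had 362, 300.0 and 369 CPM with DMSO and 407, 368 and 449 CPM with GW7647, with overlap by a narrow margin and a log2 fold change of 0.25 (SE 0.12, adjusted p = 0.23). The most abundant of the class, *pdia3*, which acts with calnexin and calreticulin, had 435, 389 and 386 CPM with DMSO and 389.9, 423 and 479 CPM with GW7647 and a log2 fold change of 0.10 (SE 0.11, adjusted p = 0.64). *pdia4* had 240.0, 157 and 194 CPM with DMSO and 232, 236 and 234 CPM with GW7647 and a log2 fold change of 0.25 (adjusted p = 0.32). In *pdia4* the GW7647 libraries lay within 4 CPM of each other while the DMSO libraries spread widely. *pdia5* had the highest log2 fold change of the class, 0.33 (SE 0.14, adjusted p = 0.18), from 43.7, 38.9 and 44.5 CPM with DMSO and 46.7, 47.5 and 65.4 CPM with GW7647. It leaned on GW7647 replicate 3, without which it was 0.16. *pdia6* had 63.4, 69.7 and 56.0 CPM with DMSO and 69.5, 61.0 and 50.9 CPM with GW7647 and was the only one below 0, at -0.06 (adjusted p = 0.82), although *pdia3* joined it at -0.13 without a scaling factor.

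The 14 ER J-domain genes tested did not move as 1 group. Of these, 6 were above 0 and 8 below, with a median of -0.01. *dnajc1* rose. It encodes ERdj1, a membrane J protein that in mammals sits at the ribosome and recruits BiP (listed at chromosome 2, 21174998 to 21182561, plus strand, 12 exons). Its levels were 73.7, 70.5 and 72.1 CPM in DMSO replicates 1, 2 and 3 and 87.9, 90.6 and 98.3 CPM in the GW7647 ones. The DMSO libraries were within 4 CPM of each other and all GW7647 libraries were higher, with a log2 fold change of 0.36 (SE 0.09, adjusted p = 0.036), or 1.28-fold. The call was lost in each of the 6 leave-outs (adjusted p = 0.066 to 0.12), where the log2 fold change was 0.31 to 0.39. It was also lost with upper-quartile scaling (0.060) and with no scaling factor, at a log2 fold change of 0.135 (adjusted p = 0.33).

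*dnajc3a* and *dnajb11* came next in this class. *dnajc3a* is a copy of DNAJC3 (P58IPK), which in mammals binds unfolded proteins in the ER and limits PERK signalling. It had 77.4, 52.7 and 63.1 CPM in DMSO replicates 1, 2 and 3 and 84.6, 80.1 and 95.5 CPM in the GW7647 ones. No GW7647 library fell below a DMSO library, and the log2 fold change was 0.43 (SE 0.14, adjusted p = 0.099), with an adjusted p of 0.020 in the block fit. Without DMSO replicate 1 it became a DEG at a log2 fold change of 0.59 (adjusted p = 0.032), and without DMSO replicate 2 it was at 0.31 (adjusted p = 0.22). It was 0.205 (adjusted p = 0.35) when no scaling factor was used. *dnajb11* (ERdj3), a soluble partner of BiP, had 106, 85.2 and 93.9 CPM with DMSO and 107, 117 and 124 CPM with GW7647 and a log2 fold change of 0.28 (SE 0.11, adjusted p = 0.14), with 62.1% of its reads mapped to 1 place.

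The J-domain genes that the unfolded protein response raises in mammals included others that did not pass. *dnajb9a* and *dnajb9b* are copies of ERdj4, which in mammals restrains the sensor IRE1. *dnajb9a* had 2.58, 2.57 and 3.37 CPM with DMSO and 2.34, 2.23 and 2.67 CPM with GW7647 and a log2 fold change of -0.23 (SE 0.20, adjusted p = 0.52). *dnajb9b* had 14.7, 11.2 and 10.9 CPM with DMSO and 13.5, 11.0 and 11.3 CPM with GW7647 and a log2 fold change of -0.04 (adjusted p = 0.90). For both, the groups overlapped. *dnajc3b*, the other copy of DNAJC3, had 29.1, 24.9 and 22.8 CPM with DMSO and 23.2, 22.0 and 25.6 CPM with GW7647 and a log2 fold change of -0.12 (adjusted p = 0.59), so its sign was opposite to that of *dnajc3a*, a difference that was not tested.

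**Figure D4:**
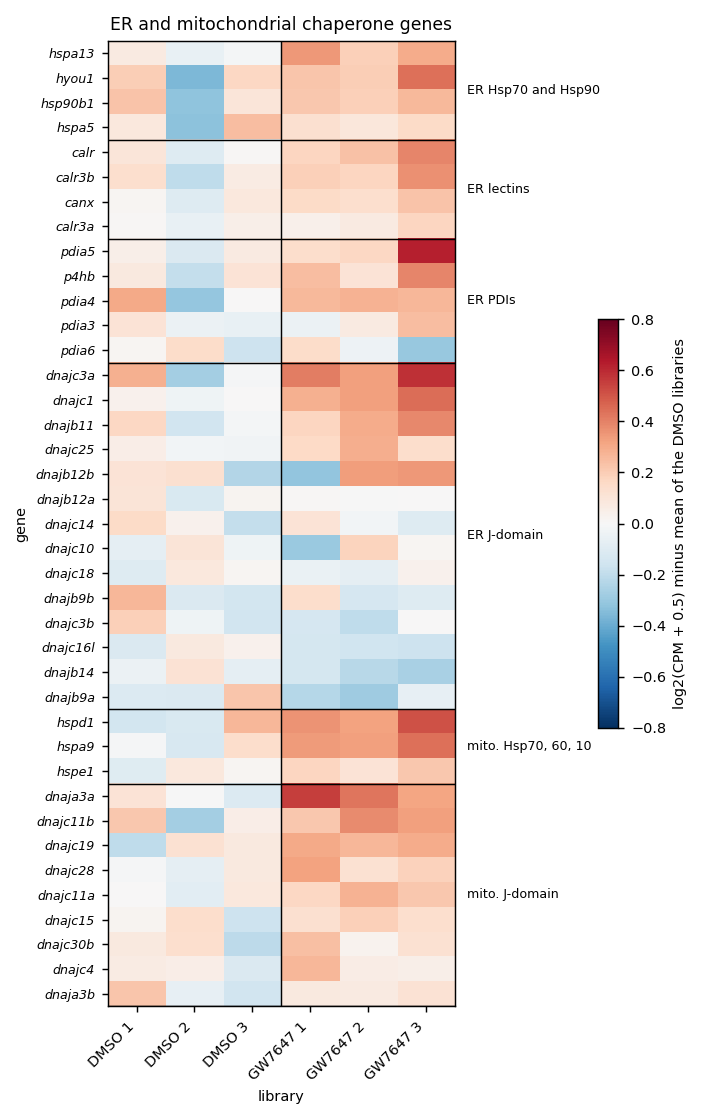
ER and mitochondrial chaperone genes tested, one row each, in the 6 libraries, coloured by log2(CPM + 0.5) minus the mean of the DMSO libraries (PDIs, disulfide isomerases). DMSO replicate 2 was the lowest library for 15 of the 27 ER genes, and all 12 mitochondrial genes at the bottom had a log2 fold change above 0.

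In mitochondria, all 12 genes tested had a log2 fold change above 0, from 0.08 to 0.43, and 8 of them (66.7%) had no overlap between groups, against 15.7% of all genes. Their median SE was 0.116, against 0.153 for all genes, which these shares do not take into account. Only *dnaja3a* passed the test in edgeR, against 5.50% of all genes higher, and 3 passed in DESeq2, against 6.96%. Neither tool gave a DEG, against 3.39% of all genes higher in edgeR and 3.87% in DESeq2. In edgeR 5 were higher at an unadjusted p under 0.05, against 12.7% of all genes. Without a scaling factor none of the 12 was free of overlap on the higher side, 6 were above 0, and the median was 0.00 against -0.23 for all genes. *dnaja3a* encodes a copy of Tid1, the J protein that serves Hsp70 in the mitochondrial matrix (listed at chromosome 3, 11926030 to 11947672, plus strand, 11 exons). Its levels were 112, 104 and 96.2 CPM in DMSO replicates 1, 2 and 3 and 153, 139.7 and 129 CPM in the GW7647 ones. The lowest GW7647 library was well above the highest DMSO library, and the log2 fold change was 0.43 (SE 0.10, adjusted p = 0.033), or 1.35-fold. The log2 differences between same-numbered libraries were 0.44, 0.43 and 0.43. Its call was lost in 5 of the 6 leave-outs (adjusted p = 0.040 to 0.11, passing only without DMSO replicate 1) and with upper-quartile scaling (0.053) or no scaling factor, where the log2 fold change was 0.21 (adjusted p = 0.16). In limma fits of log2(RPKM + 1) and log2(TPM + 1), neither *dnaja3a* (adjusted p = 0.13 and 0.15) nor *dnajc1* (0.29 and 0.31) passed. Only 55.4% of the *dnaja3a* reads mapped to 1 place, and on these alone the log2 fold change was 0.43 (adjusted p = 0.040). Its copy *dnaja3b* had 15.2, 12.4 and 11.6 CPM with DMSO and 13.8, 13.7 and 14.1 CPM with GW7647 and a log2 fold change of 0.08 (SE 0.13, adjusted p = 0.73).

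*hspa9* encodes mortalin, the matrix Hsp70 that pulls proteins in through the inner membrane and folds them. It stood at 489, 452 and 543 CPM in DMSO replicates 1, 2 and 3 and 626, 619 and 668 CPM in the GW7647 ones. All GW7647 libraries were higher, and the log2 fold change of 0.37 (SE 0.10, adjusted p = 0.053) missed the threshold narrowly. The adjusted p was 0.012 with the replicate number as a block and 0.0119 with DESeq2. It passed in no leave-out (adjusted p = 0.052 to 0.15), and with no scaling factor the log2 fold change was 0.14 (adjusted p = 0.35).

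*hspd1* and *hspe1* encode Hsp60 and Hsp10, the chaperonin of the matrix and its lid. They lie head to head on chromosome 9, with 233 bases between the deposited gene ends. *hspd1* stood at 502, 512 and 669 CPM in DMSO replicates 1, 2 and 3 and 715, 697 and 794 CPM in the GW7647 ones. GW7647 replicate 2 was only a little above DMSO replicate 3, and the log2 fold change was 0.39 (SE 0.13, adjusted p = 0.096), with an adjusted p of 0.012 in the block fit. Without DMSO replicate 3, its highest control, it passed at 0.54 (adjusted p = 0.031), while over all 6 leave-outs the log2 fold change was 0.32 to 0.54 and the adjusted p 0.031 to 0.23. DESeq2 gave an adjusted p of 0.041, and the fit with no scaling factor gave 0.165 (adjusted p = 0.39). *hspe1* stood at 313, 354 and 337 CPM in DMSO replicates 1, 2 and 3 and 377, 361 and 388 CPM in the GW7647 ones. Again there was no overlap, but the log2 fold change was 0.17 (SE 0.09, adjusted p = 0.30). The log2 ratio of *hspd1* to *hspe1* was 0.68, 0.53 and 0.99 with DMSO and 0.92, 0.95 and 1.03 with GW7647, so the 2 groups overlapped.

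The remaining mitochondrial J-domain genes had log2 fold changes of 0.13 to 0.37, and none passed. *dnajc19*, a part of the import motor, had 24.5, 30.8 and 29.9 CPM with DMSO and 35.0, 34.1 and 34.8 CPM with GW7647, with no overlap and a log2 fold change of 0.29 (SE 0.11, adjusted p = 0.13). *dnajc11a*, linked to the cristae junctions in mammals, had 77.1, 72.5 and 81.5 CPM with DMSO and 86.6, 93.5 and 89.4 CPM with GW7647, with no overlap and a log2 fold change of 0.22 (adjusted p = 0.16). The others were *dnajc11b*, a low gene with 44.7% of its reads mapped to 1 place, at 0.37, *dnajc28* at 0.23, *dnajc15* at 0.15, *dnajc30b* at 0.14 and *dnajc4* at 0.13.

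Of the 12 genes of vesicles, cilia or unsure location, 10 were tested. None was called by edgeR, against 5.50% of all genes higher and 3.56% lower, or by DESeq2, against 6.96% higher. With only 10 genes, a count of 0 is near these shares. At an unadjusted p under 0.05 in edgeR the count was also 0, against 12.7% of all genes higher and 12.3% lower. *dnajc5aa*, a copy of the gene for cysteine string protein of synaptic vesicles, had the lowest log2 fold change, -0.70 (SE 0.35, adjusted p = 0.25), from 0.829, 0.984 and 1.05 CPM with DMSO and 0.326, 0.775 and 0.636 CPM with GW7647. *dnajc6* (auxilin), which strips clathrin from vesicles, had the highest, 0.53 (SE 0.27, adjusted p = 0.26), from 2.58, 5.60 and 3.28 CPM with DMSO and 4.89, 5.86 and 5.81 CPM with GW7647. Its low DMSO values came from replicates 1 and 3, and without DMSO replicate 2 it became a DEG at 0.92 (adjusted p = 0.045). *dnajc5gb*, the most abundant per length, had a log2 fold change of -0.07 (adjusted p = 0.71).

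The 13 genes with too few reads to be tested had at most 17 reads in a library. They were *hspb2*, *hspb3*, *hspb6*, *hspb9*, *hspb11*, *hspb15*, *dnajb4*, *dnajb5*, *dnajb13*, *dnajc5b*, *dnajc16*, *hspa4l* and *pdia2*. Both *hspb2* and *dnajc5b* were at 0 reads in all 6 libraries, where 3 reads, the limit a count of 0 allows, correspond to 0.127 to 0.163 CPM. A further 9 genes whose deposited name is outside the name rule, but whose Ensembl identifier has a symbol that meets it in a table of names, were not counted. Of these, which include *hsp70.2* of the cytosolic list below, 6 were tested and none passed (lowest adjusted p = 0.38).

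Genes that work with these chaperones were read from lists of non-members. In the cytosol, 37 genes were tested, and 24 (64.9%) were above 0, against 48.2% of all genes. Without a scaling factor 5 were above 0, against 19.6% of all genes. By the adjusted p 1 rose, against 5.50% of all genes. This was *ubb*, a polyubiquitin gene, with a log2 fold change of 0.82 (SE 0.13, adjusted p = 0.0062). It had 325, 349.7 and 403 CPM with DMSO and 582, 734 and 593 CPM with GW7647. *hsf1*, the heat shock factor, was at 0.09 (adjusted p = 0.73), and *bag3*, a heat-inducible co-chaperone gene, at -0.08 (adjusted p = 0.82). The heat-inducible *hsp70.3* and *hsp70l* were low, at 6.91, 4.11 and 4.85 CPM with DMSO and 5.54, 1.55 and 2.63 CPM with GW7647 for *hsp70.3* and 5.85, 3.38 and 3.58 CPM with DMSO and 9.29, 4.36 and 3.31 CPM with GW7647 for *hsp70l*, and their log2 fold changes of -0.72 (adjusted p = 0.30) and 0.39 (adjusted p = 0.57) had opposite signs. Of the *hsp70.3* reads only 5.06% mapped to 1 place, too few to be tested on such reads, and its leave-outs ran from -1.32 to -0.38. The sister genes *hsp70.1* and *hsp70.2*, with 5.03% and 4.41% of reads mapped to 1 place, were at 0.18 (adjusted p = 0.84) and 0.035 (adjusted p = 0.98), so the split of reads among these copies is uncertain. *fkbp5*, an Hsp90 co-chaperone gene raised by glucocorticoids, had the highest value of the list, 0.98 (SE 0.38, adjusted p = 0.14), from 122, 273 and 472 CPM with DMSO and 555, 575 and 586 CPM with GW7647, but did not pass. The median of the 37 was 0.035. With the replicate number as a block, 2 of the 37 rose, against 9.95% of all genes, and 2 fell, against 7.72%. In that fit *fkbp5* passed on the higher side (adjusted p = 0.019). On the lower side *ubc*, at -0.30 (adjusted p = 0.031), and *hsp70.3* (adjusted p = 0.032, with the limit on its reads given above) passed. *ubb* was at 0.60 (adjusted p = 0.020) when no scaling factor was used.

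In the ER list, 48 genes were tested, and the median was 0.10. Of these, 36 were above 0, against 48.2% of all genes. Only 10 stayed above 0 without a scaling factor, where the share of all genes was 19.6%. By the adjusted p 4 rose, against 5.50% of all genes. *derl3*, for a part of the channel that returns misfolded proteins to the cytosol, was a DEG at 0.59 (SE 0.11, adjusted p = 0.013), from 38.0, 29.6 and 32.4 CPM with DMSO and 49.3, 49.2 and 52.0 CPM with GW7647. The others were *serp1* at 0.49 (SE 0.10, adjusted p = 0.022) and the translocon genes *sec61a1* at 0.44 (SE 0.10, adjusted p = 0.031) and *sec61b* at 0.36 (SE 0.08, adjusted p = 0.031). *derl3* and *serp1* are both raised by the unfolded protein response in mammals. The same holds for *herpud1*, *creld2*, *manf*, *edem1* and *sdf2l1*, of which none passed, with *edem1* and *sdf2l1* below 0. None of the 4 calls held without a scaling factor (adjusted p = 0.061 to 0.28), and 1 to 3 of them held in each leave-out. *derl3* was under 1.5-fold in 3 leave-outs, those of DMSO replicate 2 (0.51), DMSO replicate 3 (0.57) and GW7647 replicate 3 (0.57). It was also under 1.5-fold with upper-quartile scaling (0.54) and with at least 10 reads in every library (0.58). In limma fits of log2(RPKM + 1) and log2(TPM + 1) *derl3* did not pass (adjusted p = 0.054 and 0.081). Of the sensors of that response, *ern1* was at 0.24 (adjusted p = 0.14), *eif2ak3* at -0.15 (adjusted p = 0.32) and *atf6* at 0.29 (adjusted p = 0.24, and 0.029 in the block fit). The transcription factor genes were at 0.07 (*xbp1*, adjusted p = 0.72) and -0.09 (*ddit3*, adjusted p = 0.56), and *herpud1*, a target, at 0.19 (adjusted p = 0.53). Elsewhere in the list *creld2* was at 0.16 (adjusted p = 0.35) and *manf* at 0.11 (adjusted p = 0.52). The 12 genes below 0 included *edem1*, at -0.13 (adjusted p = 0.40), and *sdf2l1*, at -0.025 (adjusted p = 0.94) with 32.5% of its reads mapped to 1 place. The lowest of the 12 were *fkbp7*, at -0.70 (SE 0.23, adjusted p = 0.096), and *fkbp14*, at -0.63 (SE 0.21, adjusted p = 0.10). Neither had overlapping groups. The block fit called 6 of the list higher, against 9.95% of all genes, and 1 lower, against 7.72%. The lower one was *fkbp14*, at -0.63 (adjusted p = 0.041).

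In the mitochondrial list of import, folding and protease genes, 31 of 35 (88.6%) were above 0, against 48.2% of all genes, and the median was 0.29. In that direction 28 (80.0%) had no overlap, against 15.7% of all genes. The median SE of the list was 0.093, against 0.153 for all genes, which these shares do not take into account. By the adjusted p 8 rose, against 5.50% of all genes, and 20 in the block fit, against 9.95%. *clpxb*, a copy of the gene for the unfoldase of the ClpXP protease, was the only DEG at 0.78 (SE 0.09, adjusted p = 0.0015), from 77.8, 69.0 and 72.0 CPM with DMSO and 129.6, 122 and 123 CPM with GW7647. The others were *phb2b* at 0.50 (adjusted p = 0.0083), *lonp1*, the Lon protease gene, at 0.48 (adjusted p = 0.016), *timm17a* at 0.45 (adjusted p = 0.021), *phb2a* at 0.45, *clpxa* at 0.41, *afg3l2* at 0.40 and *timm44* at 0.36. *trap1*, the mitochondrial Hsp90, had 57.8, 60.7 and 74.3 CPM with DMSO and 84.7, 86.4 and 80.6 CPM with GW7647 and a log2 fold change of 0.39 (SE 0.11, adjusted p = 0.064). When no scaling factor was used, 24 of the 35 stayed above 0, against 19.6% of all genes, with a median of 0.07. On the higher side 6 (17.1%) had no overlap, against 5.40% of all genes. Of the 8 calls only *clpxb* held in that fit (adjusted p = 0.0081, and 0.058 to 0.32 for the others), and 2 to 6 of the 8 held in each leave-out.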

How the data were processed

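RNA-sequencing of 6 libraries of dissected *Tg*(*fabp10a:pt-β-catenin*) livers was read, 3 treated with DMSO and 3 with GW7647. Libraries were made with a stranded poly(A) kit, and the authors mapped the reads in CLC Genomics Workbench. Its version, the genome build and the treatment of reads that map to several places are not given in the sources used here. For each gene the authors deposited a whole-number count of exon reads, not normalized. TPM and RPKM values, which their software derived from these reads by exon length and library total, were deposited beside it. So were the intron share and the uniquely mapped share of the reads, each as a deposited fraction. The uniquely mapped shares printed here were not read from these fractions. They were computed from the deposited counts of unique and of all exon reads, summed over the 6 libraries. No genome sequence, promoter or protein was used here.

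In R 4.3.3, genes passing filterByExpr with a minimum count of 10 were scaled by TMM and tested by quasi-likelihood in edgeR 4.0.16, without covariates. The Benjamini-Hochberg adjustment took in all 15705 genes tested. The standard error (SE) was taken from the F statistic. The fold change threshold of 1.5 and the adjusted p of 0.05 follow the study. The methods state that several clutches were used and the samples are called independent. How clutches were divided among the pools is not given, so p-values measure the spread between these libraries. Replicate numbers were checked by correlating deviations from the group means. The correlation was 0.161 to 0.324 for the 3 same-numbered pairs and -0.239 to 0.0754 for the other 6. Deviations within a group sum to 0 for each gene, so these correlations are not independent. What a number shares is not given. The main fit leaves the replicate number out, and a fit with it as a block was run beside it. Alternatives were this replicate block, DESeq2 1.42.0, limma 3.58.1 on log2(RPKM + 1) and log2(TPM + 1), upper-quartile normalization, no scaling factor, other filters and reads, and each library left out in turn. The test scripts were tested on simulated data. Figures used matplotlib 3.10.9.

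The members, classes, lists and the rule for named genes were chosen with earlier results of these data known. The rule names each member with an adjusted p of at most 0.05, per class the most abundant, the largest rise and the largest fall, and the main chaperones of each compartment. Genes named beyond it were chosen after their values were seen. They are members not tested or at the edge of a class, *hspb7*, *dnajc19*, *dnajc11a* and the other mitochondrial J-domain genes, and genes of the companion and marker lists. Of the 234 entries of those lists, 7 were not found and 5 were found only through a table of Ensembl identifiers. The erythrocyte, cilia and lens markers summed to 50.8 to 73.1, 12.2 to 15.2 and 0.385 to 0.691 CPM with DMSO and to 62.7 to 67.6, 14.5 to 15.2 and 0.242 to 0.761 CPM with GW7647.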

Additional observations from a re-analysis of the deposited data

How the results depend on the processing

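The 2 falling DEGs and the absence of a rising one were the same with DESeq2, unique exon reads, all reads on a gene, both other filters and the replicate block. With no fold change threshold, 2 genes rose in all, 1 in the ER and 1 in mitochondria. Leaving out 1 library gave 0 to 1 rising DEGs among the 98 chaperone genes and in the ER and 1 to 2 falling ones among the 98 and in the cytosol. The median log2 fold change in those fits was 0.10 to 0.14 over all tested chaperone genes, 0.06 to 0.13 in the cytosol, 0.07 to 0.19 in the ER and 0.21 to 0.27 in mitochondria. Upper-quartile scaling gave medians of 0.065 for all and 0.17 for mitochondria. No scaling factor gave -0.10 for all, -0.14 for the cytosol, -0.05 for the ER and 0.00 for mitochondria, log2(RPKM + 1) gave -0.08, -0.10, -0.05 and 0.011, and log2(TPM + 1) gave -0.06, -0.09, -0.04 and 0.034. These last 3 settings have no TMM factor, and their all-gene medians were -0.23, -0.15 and -0.16. The block raised the rising calls by adjusted p from 2 to 6 and changed no other call among the genes named by the rule.

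Single genes changed sign mainly in the same 3 settings. With no scaling factor 36 of the 85 tested chaperone genes turned from above to below 0, with log2(RPKM + 1) 34 of 79 and with log2(TPM + 1) 29 of 83. Of these 20, 18 and 17 were genes named by the rule, whose values follow. With no scaling factor they were -0.130 (*calr3a*), -0.054 (*canx*), -0.180 (*cct2_1*), -0.158 (*cct2_2*), -0.089 (*cct3*), -0.149 (*cct4*), -0.101 (*cct5*), -0.083 (*cct6a*), -0.103 (*cct7*), -0.125 (*cct8*), -0.008 (*dnaja2a*), -0.138 (*dnaja3b*), -0.043 (*hsp90ab1*), -0.023 (*hsp90b1*), -0.089 (*hspa4b*), -0.124 (*hspa5*), -0.090 (*hspa8*), -0.005 (*hspb8*), -0.056 (*hspe1*), -0.126 (*pdia3*). With log2(RPKM + 1) they were -0.117 (*calr3a*), -0.039 (*canx*), -0.176 (*cct2_1*), -0.151 (*cct2_2*), -0.076 (*cct3*), -0.138 (*cct4*), -0.089 (*cct5*), -0.071 (*cct6a*), -0.086 (*cct7*), -0.112 (*cct8*), -0.102 (*dnaja3b*), -0.030 (*hsp90ab1*), -0.073 (*hspa4b*), -0.087 (*hspa5*), -0.079 (*hspa8*), -0.008 (*hspb8*), -0.043 (*hspe1*), -0.119 (*pdia3*). With log2(TPM + 1) they were -0.094 (*calr3a*), -0.016 (*canx*), -0.153 (*cct2_1*), -0.128 (*cct2_2*), -0.053 (*cct3*), -0.115 (*cct4*), -0.065 (*cct5*), -0.048 (*cct6a*), -0.063 (*cct7*), -0.090 (*cct8*), -0.088 (*dnaja3b*), -0.007 (*hsp90ab1*), -0.051 (*hspa4b*), -0.064 (*hspa5*), -0.055 (*hspa8*), -0.020 (*hspe1*), -0.096 (*pdia3*). Upper-quartile scaling turned *cct2_1* to -0.014, and unique exon reads turned *hsp90aa1.2* to 0.002. Among the genes whose sign depended on 1 library, the leave-outs ran from -0.079 to 0.131 (*cct2_1*), -0.028 to 0.146 (*cct2_2*), -0.132 to 0.113 (*dnajb9b*), -0.121 to 0.006 (*dnajc5gb*), -0.215 to 0.131 (*hsp90aa1.2*), -0.040 to 0.235 (*hspa5*), -0.169 to 0.055 (*pdia6*). None of the genes listed was called in the fit with TMM. Depth limits the low genes, since 3 reads stood for 0.127 to 0.163 CPM and *hsph1* and *hspb7* rested on few reads.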
